A study of Mus musculus with 14 samples.

Results

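The miRNAs described here are 7 that are best known from the brain: miR-124-3p, miR-137-3p, miR-138-5p, miR-128-3p, miR-132-3p, miR-212-3p and miR-218-5p. They were chosen by name, as miRNAs enriched in neurons, with earlier results of these data known, and are described here in the mouse epididymis. All 7 are listed in both count tables of the series, which together list 999 mature miRNA names. A miRNA pairs through its seed, bases 2 to 8 of the mature strand, with sites in messenger RNAs and lowers their translation and stability. In neurons these 7 act in differentiation, dendrite growth and synaptic strength, and several of them are also made in tissues without neurons at lower levels. The epididymis is the duct in which sperm mature, and its wall holds a secretory epithelium, smooth muscle, vessels and nerve fibres.

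Small RNA was sequenced from the caput, corpus and cauda, the proximal, middle and distal regions of the epididymis, of male Swiss mice aged 8 weeks with no treatment. For both preparations the vessels of the mice were flushed with buffer before dissection. Whole tissue gave 3 caput, 2 corpus and 3 cauda libraries, each from RNA pooled over 3 mice. Epithelial cells gave 2 libraries per region, each from a larger pool of mice, after sperm were washed out and the tissue was digested with trypsin and then collagenase. Cells that stayed in suspension while fibroblasts and muscle cells attached were kept, so this preparation was made to enrich epithelium and is not a sorted cell type. Whole tissue is a mixture in which a lower value can come from fewer cells of a type or from less of the miRNA per cell, and the 2 cannot be told apart.

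Total counts per whole tissue library were 1739805, 1724443 and 2135501 in caput, 1243398 and 1390826 in corpus, and 1777731, 1457959 and 1562100 in cauda. The epithelial libraries were shallower, at 362867 and 324907 in caput, 127111 and 89039 in corpus, and 283284 and 179060 in cauda. The median whole tissue library held 7.11 times the counts of the median epithelial library. A count of 3, the limit that a count of 0 allows, corresponds to 1.41 to 2.41 CPM (counts per 1000000 counts of the library) in whole tissue and to 8.27 to 33.7 CPM in epithelial cells. Together the 7 miRNAs made up 0.0367% to 0.0966% of the counts of a whole tissue library and 0.0297% to 0.0513% of an epithelial library. Intervals on counts and these limits cover counting error only. The p-values below measure only the spread between libraries, which may be technical, since the sources differ on whether replicates are biological or technical.

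A mean count above 10 over the libraries of a region counted as identification there. By that rule 6 of the 7 were identified in whole tissue, all but miR-212-3p, and 4 of the 7 in epithelial cells, miR-128-3p, miR-132-3p, miR-138-5p and miR-218-5p. Whole tissue miR-124-3p had a mean of 11.3 counts in cauda and was no longer identified without cauda replicate 1, or when every library of a region had to pass 10 counts, which left 5 of 7. In epithelial corpus miR-218-5p alone was identified, with a mean of 12.5 counts. miR-212-3p passed only with a mean above 10 CPM in place of counts, in epithelial cells, which gave 5 of 7 there, and the same rule left out miR-124-3p in whole tissue, for 5 of 7. CPM values below are scaled by the trimmed mean of M values (TMM) within each preparation.

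The mature sequences show which of these miRNAs share a seed. They were matched by name to RefSeq entries for GRCm38.p6, which gave 6 of the 7, and are written 5′ to 3′ with the seed in capitals.
miR-137-3p: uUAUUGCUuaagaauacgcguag
miR-138-5p: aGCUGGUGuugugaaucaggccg
miR-128-3p: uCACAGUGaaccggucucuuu
miR-132-3p: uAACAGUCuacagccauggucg
miR-212-3p: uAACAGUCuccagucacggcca
miR-218-5p: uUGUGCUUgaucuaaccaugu
miR-132-3p and miR-212-3p have the same seed, and the other 4 have seeds of their own. The shared pair is 22 bases long, of which 17 are the same, and differs by A10C, C14U, U17C, U20C and G22A, with the base of miR-132-3p first and positions counted from 1 at the 5′ end of miR-132-3p. All 5 differences lie outside the seed.

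The hairpins lie at separate places in the mouse genome (GRCm38), apart from Mir132 and Mir212. Mir212 (chr11:75173388-75173478) and Mir132 (chr11:75173682-75173747) are 203 bases apart on the plus strand, in an intron of the noncoding gene 1700016P03Rik. miR-137-3p comes from Mir137 (chr3:118433857-118433929), in an exon of the noncoding transcript Gm26871. miR-138-5p has 2 source hairpins with the same mature sequence, Mir138-1 (chr9:122682876-122682974) and Mir138-2 (chr8:94324311-94324381), so its counts cannot be divided between them. The hairpins of miR-128-3p lie in introns of R3hdm1 (chr1:128202361-128202430) and Arpp21 (chr9:112118636-112118711). Those of miR-218-5p lie in introns of Slit2 (chr5:48223942-48224051) and Slit3 (chr11:35616816-35616925), genes for axon guidance ligands. miR-124-3p has 3 source hairpins, on chromosomes 14, 3 and 2.

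**Figure D1:**
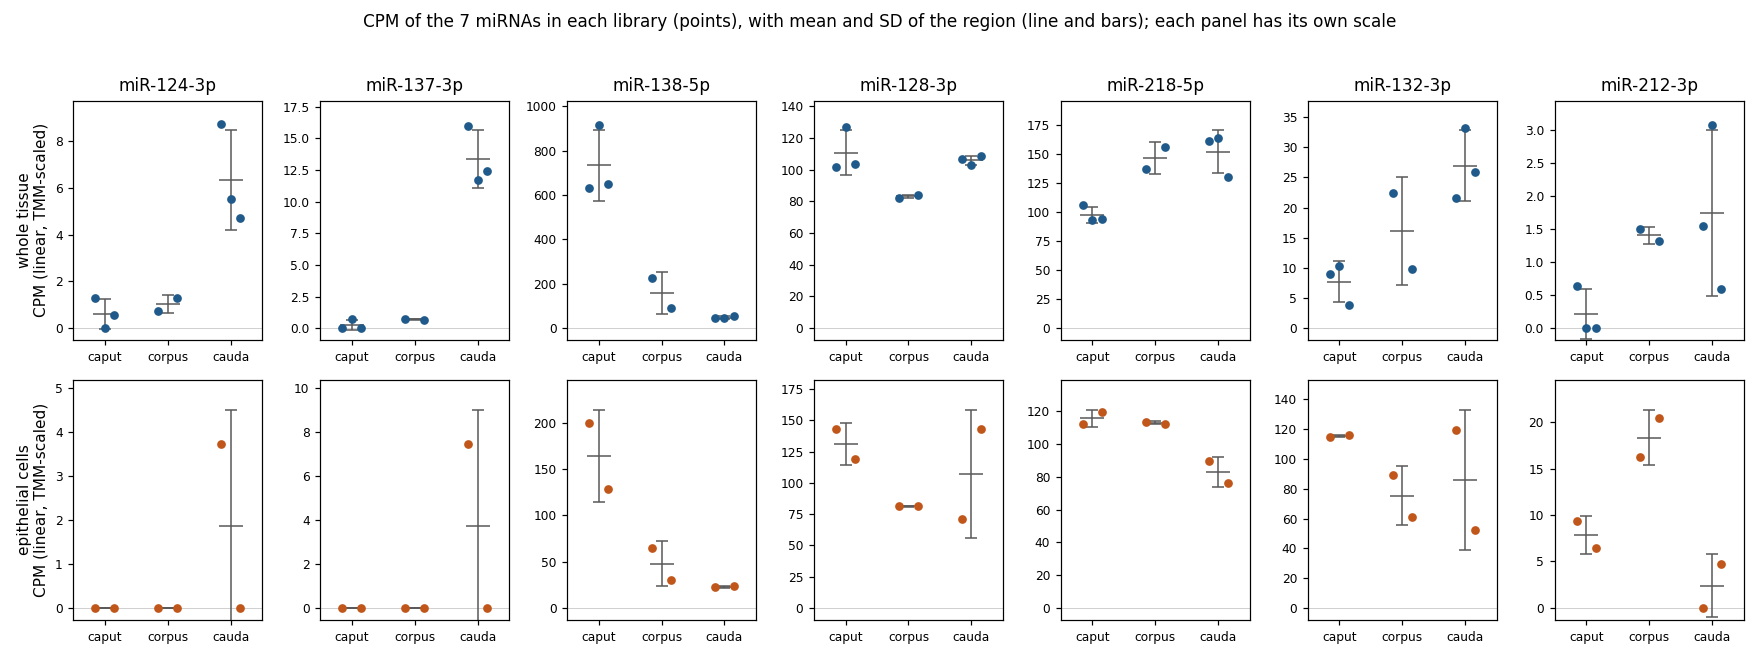
CPM (linear scale) of each of the 7 miRNAs in every library (points) by region, whole tissue above and epithelial cells below, with the mean (line) and SD (bars) of each region and a separate scale per panel. In whole tissue miR-138-5p spans 633 to 917 CPM in caput and 44.3 to 54.8 CPM in cauda, while miR-137-3p spans 0 to 0.690 CPM in caput and 11.7 to 15.95 CPM in cauda.

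The comparisons between regions of whole tissue ask how each miRNA is distributed along the duct. From caput to cauda miR-138-5p fell, and miR-124-3p, miR-137-3p and miR-132-3p rose. A miRNA was called changed at an adjusted p below 0.05 and at least 2-fold, and by that rule 4 of the 6 tested members were called, 3 higher and 1 lower in cauda, where 53.2% of all 355 miRNAs tested were called. Each miRNA needed a mean count above 10 in either region to be tested, so those that were near 0 in caput entered through their cauda counts. From caput to corpus 1 of 4 tested members was called, miR-138-5p, with 29.9% called among all tested. From corpus to cauda 3 of 6 were called, miR-124-3p, miR-137-3p and miR-138-5p, with 27.3% among all tested. The median log2 fold change of the members tested was 0.09 from caput to corpus, 0.59 from corpus to cauda and 1.26 from caput to cauda, and over all miRNAs tested it was −0.05, 0.05 and −0.05. The member medians into cauda include miR-124-3p and miR-137-3p, which entered through cauda and whose fitted values depend on the prior count. Those medians are therefore not read against the medians over all miRNAs.

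miR-124-3p, the miRNA most closely tied to neuronal differentiation, was near the limit of detection in proximal whole tissue. It stood at 1.29, 0 and 0.549 CPM in the caput libraries (2, 0 and 1 counts), at 0.747 and 1.31 CPM in corpus (1 and 2 counts), and at 8.75, 5.54 and 4.72 CPM in cauda (17, 9 and 8 counts). Every cauda library was above every caput and corpus library, while caput and corpus overlapped. The count ratio, scaled for depth, of cauda to caput was 10.4 (95% counting interval 3.27 to 52.9), and that of cauda to corpus was 6.17 (1.94 to 31.4). Its fitted log2 fold change was 3.08 ± 0.59 (SE, adjusted p = 0.00086) from caput to cauda and 2.26 ± 0.70 (adjusted p = 0.021) from corpus to cauda, values that depend on the prior count because caput and corpus each held 3 counts in all. The corpus to cauda call was lost without corpus replicate 1 (2.01, adjusted p = 0.12), without corpus replicate 2 (2.56, adjusted p = 0.081) and with DESeq2 (2.65, adjusted p = 0.13).

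miR-137-3p, which regulates neural progenitors and synapses, showed the same order of regions at a higher cauda level. It stood at 0, 0.690 and 0 CPM in caput (1 count in all), at 0.747 and 0.656 CPM in corpus (1 count each) and at 15.95, 11.7 and 12.4 CPM in cauda (31, 19 and 21 counts). The cauda libraries were all above the others, and caput and corpus overlapped. The count ratio of cauda to caput was 65.1 (95% counting interval 11.3 to 2607), and that of cauda to corpus was 19.3 (5.15 to 162.5). Its fitted log2 fold changes were 4.92 ± 0.52 (adjusted p = 1.3e-05) from caput and 3.70 ± 0.63 (adjusted p = 0.00076) from corpus, again dependent on the prior count. Without caput replicate 2, the only caput library with a count, the change from caput to cauda was 5.59, edgeR gave 5.57 and DESeq2 gave 5.99. From corpus to cauda DESeq2 gave 4.30.

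miR-138-5p, which acts on the growth of dendritic spines, was the only member called with its highest level in caput. It stood at 633, 917 and 652 CPM in the caput libraries, at 225 and 92.5 CPM in corpus, and at 44.3, 44.3 and 54.8 CPM in cauda. The 3 regions did not overlap, and the 2 corpus libraries lay further apart than the cauda libraries. Its level fell 5.04-fold from caput to corpus (log2 −2.33 ± 0.30, adjusted p = 0.00012), 2.99-fold from corpus to cauda (−1.58 ± 0.36, adjusted p = 0.0046) and 15.1-fold from caput to cauda (−3.92 ± 0.30, adjusted p = 1.2e-06). Both changes that involve corpus moved with the corpus library left out. Without corpus replicate 1 they were −2.96 and −0.93, and the second was then under 2-fold and no longer called. Without corpus replicate 2 they were −1.63 and −2.23.

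miR-128-3p, which dampens neuronal excitability, varied little along the duct. It stood at 102, 127 and 104 CPM in caput, 82.2 and 84.0 CPM in corpus, and 107, 103 and 109 CPM in cauda. With TMM scaling the corpus libraries were the lowest, and caput and cauda overlapped, while by library totals corpus replicate 2 (92.0 CPM) was above caput replicates 1 and 3 (90.8 and 88.5 CPM). Its log2 fold change was −0.40 ± 0.14 from caput to corpus (adjusted p = 0.036), 0.35 ± 0.14 from corpus to cauda (adjusted p = 0.064) and −0.05 ± 0.12 from caput to cauda (adjusted p = 0.69), none of them 2-fold. From caput to corpus it was −0.069 (adjusted p = 0.69) with library totals alone and −0.24 (adjusted p = 0.17) without caput replicate 2, and the adjusted p was 0.21 with DESeq2. The change from caput to cauda turned positive with library totals alone (0.29, adjusted p = 0.039), with DESeq2 (0.031) and with DESeq2 size factors (0.035), and without caput replicate 2 (0.11) or corpus replicate 2 (0.012).

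miR-218-5p, an miRNA of motor neurons, also varied within 2-fold. It stood at 106, 93.8 and 93.9 CPM in caput, 137 and 157 CPM in corpus, and 162, 164 and 131 CPM in cauda. All caput libraries were below all others, and corpus and cauda overlapped. The log2 fold change was 0.59 ± 0.15 from caput to corpus (adjusted p = 0.0077) and 0.63 ± 0.13 from caput to cauda (adjusted p = 0.0015), a 1.55-fold difference that passed the p threshold and not the 2-fold one. From corpus to cauda it was 0.04 ± 0.14 (adjusted p = 0.8), and it turned to −0.026 without corpus replicate 1, −0.0047 without cauda replicate 1 and −0.013 without cauda replicate 2.

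miR-132-3p and miR-212-3p come from a cluster that neuronal activity switches on through CREB, and miR-132-3p promotes dendrite growth. In whole tissue miR-132-3p stood at 9.01, 10.4 and 3.84 CPM in caput, 22.4 and 9.84 CPM in corpus, and 21.6, 33.2 and 25.9 CPM in cauda. Caput and cauda did not overlap, while corpus replicate 2 lay among the caput libraries and corpus replicate 1 among the cauda libraries. Its level rose 3.71-fold from caput to cauda (log2 1.89 ± 0.42, adjusted p = 0.0021). The changes into and out of corpus were 1.05 ± 0.50 (adjusted p = 0.096) and 0.84 ± 0.40 (adjusted p = 0.098), both outside the p threshold, with 2.07-fold for the change into corpus. Without corpus replicate 2 they were 1.73 (adjusted p = 0.029), which was called, and 0.23. Without corpus replicate 1 they were 0.50 (adjusted p = 0.51) and 1.41. With library totals alone the change into corpus was called (1.39, adjusted p = 0.036).

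miR-212-3p, with the same seed, was too low in whole tissue to be tested. It stood at 0.643, 0 and 0 CPM in caput, 1.49 and 1.31 CPM in corpus and 1.54, 3.08 and 0.590 CPM in cauda. With 1 count in the caput libraries and 9 in the cauda libraries, caput and cauda overlapped, and the count ratio of cauda to caput was 8.25 (95% counting interval 1.14 to 362). Over the 8 whole tissue libraries miR-132-3p had 221 counts and miR-212-3p had 14.

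The other strands of these hairpins were rarer, apart from that of Mir212. Of 10 other strands sought, 8 were listed in whole tissue and 5 in epithelial cells, and none was identified. miR-212-5p had 47 counts in whole tissue against 14 for miR-212-3p, 77.1% of the pair (exact 95% interval 64.5% to 86.9%), and exceeded it in 8 of 8 libraries. In epithelial cells the pair had 11 and 10 counts, with miR-212-5p higher in 2 of 6 libraries and miR-212-3p in 4. miR-132-3p had 221 counts against 5 for miR-132-5p in whole tissue, and 133 against 0 in epithelial cells. miR-128-3p had 1327 against 63 for miR-128-1-5p in whole tissue, and 150 against 2 in epithelial cells. No correction was made for how readily each strand is cloned.

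**Figure D2:**
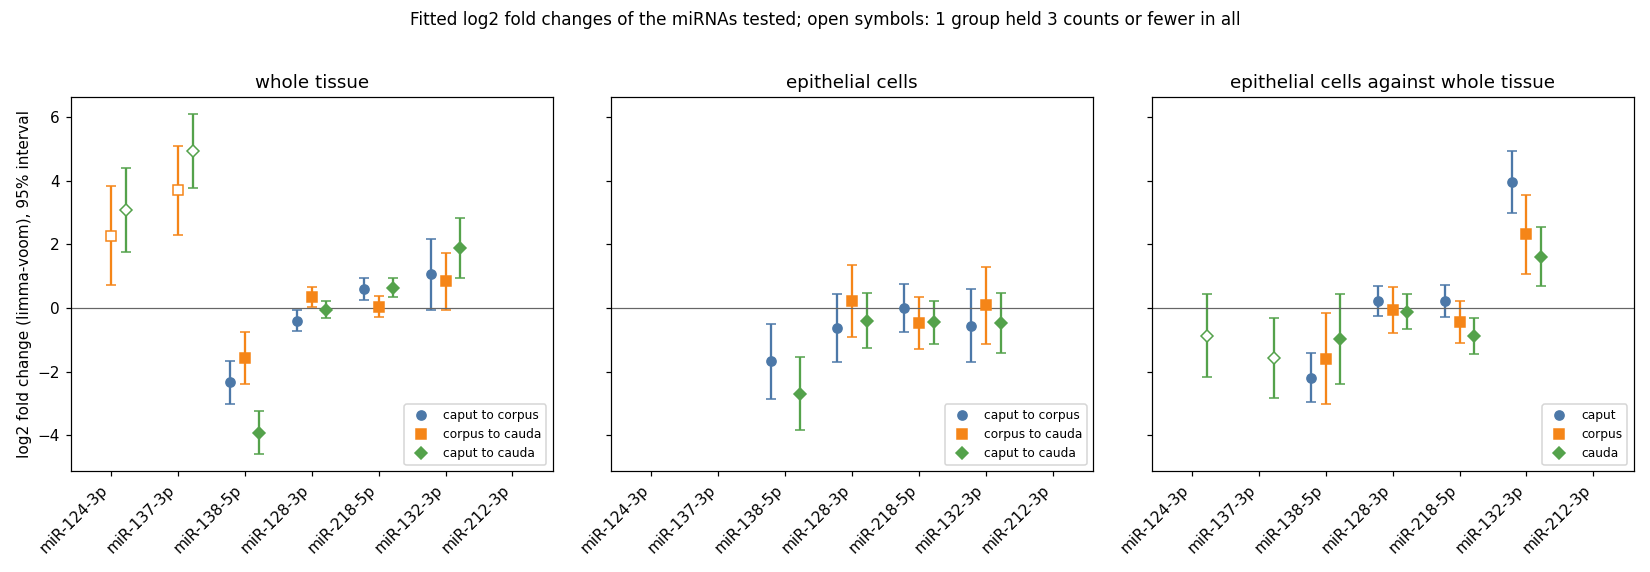
Fitted log2 fold changes with 95% intervals of the members tested, between regions of whole tissue (left), between regions of epithelial cells (middle) and between epithelial cells and whole tissue in each region (right), with open symbols where a group held 3 counts or fewer in all. From caput to cauda miR-138-5p is at −3.92 in whole tissue and −2.69 in epithelial cells, while miR-132-3p is at 1.89 in whole tissue and −0.47 in epithelial cells.

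Within the epithelial preparation the same comparisons ask how each miRNA is distributed among cells prepared to enrich epithelium. miR-138-5p fell from caput to cauda, and no other member was called between any pair of regions. From caput to cauda 1 of 4 tested members was called, with 25.9% called among all 216 miRNAs tested. From caput to corpus limma called 0 of 4, with 12.2% among all tested, while 1 of the 4 had an unadjusted p under 0.05, edgeR called 1 and DESeq2 called 0. From corpus to cauda limma called 0 of 3, with 10.9% among all tested, and the counts at an unadjusted p under 0.05, by edgeR and by DESeq2 were also 0. The median log2 fold change of the members tested was −0.59, 0.08 and −0.47 from caput to corpus, corpus to cauda and caput to cauda, and over all miRNAs tested it was −0.15, 0.08 and 0.00.

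In epithelial cells miR-138-5p stood at 199 and 129 CPM in caput, 64.9 and 30.6 CPM in corpus, and 22.3 and 23.9 CPM in cauda. The regions did not overlap and followed the order seen in whole tissue. It held 64 and 40 counts in the caput libraries, 8 and 3 in corpus, and 6 and 5 in cauda. With a mean of 5.5 counts in corpus and in cauda, it passed the filter on low counts through caput alone, where it was high. Its level fell 6.45-fold from caput to cauda (log2 −2.69 ± 0.50, adjusted p = 0.0055). From caput to corpus the change was −1.67 ± 0.51 (adjusted p = 0.051), just outside the threshold, and was called by edgeR (−1.73, adjusted p = 0.034) and with every miRNA of at least 1 count tested (−1.82, adjusted p = 0.022).

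The level of miR-132-3p in epithelial cells was 115 and 116 CPM in caput, 89.3 and 61.3 CPM in corpus, and 119 and 52.5 CPM in cauda. The caput libraries were close together, the cauda libraries lay on either side of them, and no order of regions held. Its caput to cauda change was −0.47 ± 0.40 (log2, adjusted p = 0.36), and it was 0.043 without cauda replicate 2. miR-212-3p stood at 9.34 and 6.44 CPM in caput, 16.2 and 20.4 CPM in corpus, and 0 and 4.78 CPM in cauda, with no more than 3 counts in any library. It was not tested, and its count ratio of cauda to caput was 0.264 (95% counting interval 0.00559 to 2.36).

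For miR-128-3p the epithelial values were 143 and 119 CPM in caput, 81.1 and 81.7 CPM in corpus, and 70.8 and 143 CPM in cauda. The cauda libraries spanned the whole range of the other regions. Its caput to cauda change was −0.40 ± 0.37 (log2, adjusted p = 0.4), and it was 0.20 without cauda replicate 1. miR-218-5p stood at 112 and 119 CPM in caput, 114 and 112 CPM in corpus, and 89.4 and 76.4 CPM in cauda. Its cauda libraries were the lowest of the 6, with a caput to cauda change of −0.46 ± 0.30 (log2, adjusted p = 0.26).

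miR-124-3p and miR-137-3p were at 0 in all epithelial libraries of caput and corpus and in cauda replicate 2. In cauda replicate 1 they had 1 count (3.72 CPM) and 2 counts (7.45 CPM), under the 3 counts that mark the limit there. Over the libraries of a region 3 counts correspond to 4.75 CPM in caput, 13.6 CPM in corpus and 6.28 CPM in cauda. The whole tissue cauda means, on their own scale, were 6.34 CPM for miR-124-3p and 13.3 CPM for miR-137-3p. A level like that of miR-124-3p would not have been detectable in epithelial corpus, while that of miR-137-3p is close to the limit in corpus and above those in caput and cauda. No fold between epithelial regions is given, since no epithelial region held more than 3 counts of either.

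Comparing epithelial cells with whole tissue in the same region asks how levels differ between the 2 preparations. miR-132-3p was higher in epithelial cells in all 3 regions, and miR-138-5p was lower in caput. miR-137-3p passed the rule in cauda through its whole tissue counts, with 2 counts in epithelial cells and a counting interval that includes 1, and lost that call with edgeR and without any of 5 libraries. In caput 2 of 4 tested members were called, with 35.9% called among all tested. In corpus 1 of 4 was called, with 27.3% among all tested, and in cauda 2 of 6, with 36.5%. The median log2 fold change of the members tested was 0.22 in caput, −0.25 in corpus and −0.87 in cauda (−0.92 with count ratios in place of fitted values for miR-124-3p and miR-137-3p), and over all miRNAs tested it was −0.28, −0.24 and −0.21. The preparation coincides with the count table, the number of mice pooled, digestion and depth, and these cannot be told apart.

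Neuronal markers were lower in epithelial cells for 1 of 2 tested in caput, 2 of 2 in corpus and 1 of 3 in cauda. The marker miR-129-5p, under the filter on low counts, went the other way in every region. On the scale shared by all 14 libraries it stood at 11.1 and 26.4 CPM in epithelial caput against 0.546 to 0.649 CPM in whole tissue. In corpus it stood at 7.51 and 9.94 CPM against 1.52 and 0 CPM, and in cauda at 19.6 and 4.76 CPM against 0.668 to 4.36 CPM. miR-9-5p was lower in caput (log2 −1.57 ± 0.24, adjusted p = 8.9e-05), corpus (−2.03, adjusted p = 0.032) and cauda (−1.84, adjusted p = 0.019), and miR-153-3p in corpus (−1.74, adjusted p = 0.024). The corpus call of miR-9-5p was lost without whole tissue corpus replicate 1 or either epithelial corpus replicate, its cauda call without either epithelial cauda replicate, and that of miR-153-3p without whole tissue corpus replicate 2 or epithelial corpus replicate 1 (−0.55, adjusted p = 0.46). Of the longer list of neural names, which shares miR-9-5p and miR-153-3p with these markers, 1 of 6 was lower in caput and 2 of 6 in corpus, and in cauda 2 of 8 were lower, of which miR-487b-3p lost its call without epithelial cauda replicate 1, and 1 was higher. Their part in the differences of the members was not tested.

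Markers of other cell types differed in both directions. The smooth muscle marker miR-143-3p was higher than in whole tissue in caput (log2 1.43 ± 0.23, adjusted p = 0.00015) and corpus (1.29 ± 0.26, adjusted p = 0.0014) and not called in cauda (−0.14 ± 0.23). It was the only smooth muscle marker tested in caput and corpus. In cauda limma called 0 of 2 tested, with 0 at an unadjusted p under 0.05 and 0 by edgeR. Their median log2 difference was 0.45, so the other marker was on the positive side. Of 5 fibroblast markers, 2 of which (miR-199a-3p and miR-199b-3p) have the same values, 3 were higher and 2 lower in caput (1 lower with library totals alone), 2 were lower in corpus, and 2 were higher and 2 lower in cauda. Of the leukocyte markers 1 of 2 tested was higher in caput, and in cauda 2 of 3 were higher and 1 lower. In corpus limma called 0 of 2 leukocyte markers (median log2 −0.54), with 0 at an unadjusted p under 0.05 and 0 by edgeR. Of 6 epithelial markers 1 was higher in caput and 1 lower (miR-141-3p, a call lost with library totals alone and without any of 3 libraries), 1 was higher in corpus and 3 were higher in cauda, with medians of −0.09, 0.33 and 0.93, and miR-205-5p was the marker higher in every region. Germ cell markers were lower for 2 of 9 tested in caput, 2 of 11 in corpus and 7 of 11 in cauda (8 with library totals alone). Endothelial markers, named differently in the 2 tables and so not in the joint fit, summed to 35750 and 25520 CPM in epithelial caput against 14780 to 18250 CPM in whole tissue, each on its own scale, to 14320 and 13090 CPM against 14740 and 13950 CPM in corpus, and to 56670 and 46640 CPM against 16400 to 17320 CPM in cauda. Red blood cell markers summed to 473 and 382 CPM against 87.3 to 97.8 CPM in caput, 207 and 434 CPM against 276 and 238 CPM in corpus, and 2966 and 1588 CPM against 846 to 1324 CPM in cauda. Only miR-144-3p and miR-144-5p of these had the same name in both tables. Of them limma called 0 of 1 tested in corpus (miR-144-3p, log2 −1.06) and 0 of 2 in cauda (log2 0.76 and 0.59). In both regions 0 had an unadjusted p under 0.05 and 0 were called by edgeR. The part of what these markers measure in the differences of the members was not tested.

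On the scale shared by all 14 libraries miR-132-3p in caput stood at 9.09, 9.74 and 3.82 CPM in whole tissue and at 103 and 119 CPM in epithelial cells. In corpus it stood at 22.9 and 10.0 CPM against 82.6 and 59.7 CPM, and in cauda at 22.3, 36.1 and 27.4 CPM against 126 and 52.4 CPM. Every epithelial library was above every whole tissue library of its region. The difference was 15.6-fold in caput (log2 3.96 ± 0.46, adjusted p = 5.8e-06), 4.95-fold in corpus (2.31 ± 0.58, adjusted p = 0.0065) and 3.05-fold in cauda (1.61 ± 0.44, adjusted p = 0.0065). The corpus call was lost without whole tissue corpus replicate 2 (1.71, adjusted p = 0.052) or epithelial corpus replicate 1 (1.95, adjusted p = 0.1). The cauda call was lost without epithelial cauda replicate 1 (0.97, adjusted p = 0.21).

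Its cluster partner miR-212-3p was on the same side in caput and corpus. On the shared scale it stood at 0.649, 0 and 0 CPM in whole tissue caput and 8.32 and 6.597 CPM in epithelial caput, and at 1.52 and 1.34 CPM against 15.02 and 19.9 CPM in corpus. The 2 preparations did not overlap in these regions. At these counts it was under the filter on low counts, and the count ratio of epithelial cells to whole tissue was 37 in caput (95% counting interval 4.14 to 1750) and 12.0 in corpus (2.24 to 64.6). In cauda the ratio was 1.19 (0.0272 to 8.61). With every miRNA of at least 1 count tested, miR-212-3p was called higher in caput (adjusted p = 2e-04) and in corpus (adjusted p = 0.0022). That filter also called miR-137-3p higher in both regions (adjusted p = 0.025 and 0.032), with 0 counts in epithelial cells and 1 and 2 in whole tissue. Under it a call can thus arise without any epithelial count. The calls of both miRNAs there depend on the prior count and carry no fold.

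miR-138-5p on the same scale stood at 639, 863 and 648 CPM in whole tissue caput and at 177 and 132 CPM in epithelial caput. It stood at 229 and 94.1 CPM against 60.1 and 29.8 CPM in corpus, and at 45.6, 48.1 and 57.9 CPM against 23.6 and 23.8 CPM in cauda. The epithelial libraries were below the whole tissue libraries in every region. The difference was 4.55-fold in caput (log2 −2.19 ± 0.36, adjusted p = 0.00019) and did not pass the p threshold in corpus (−1.59 ± 0.67, 3.02-fold, adjusted p = 0.071) or cauda (−0.96 ± 0.66, adjusted p = 0.22). In corpus it was called by edgeR (−1.78, adjusted p = 0.016), with every miRNA of at least 1 count tested (−1.65, adjusted p = 0.044) and without whole tissue corpus replicate 2 (−2.25, adjusted p = 0.0041). It was −0.98 (adjusted p = 0.17) without whole tissue corpus replicate 1 and −2.20 (adjusted p = 0.18) without epithelial corpus replicate 1.

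In cauda miR-137-3p stood at 16.4, 12.7 and 13.1 CPM in whole tissue and at 7.86 and 0 CPM in epithelial cells, and miR-124-3p at 9.02, 6.01 and 4.98 CPM against 3.93 and 0 CPM. The limits of 3 counts in the epithelial libraries are 10.6 and 16.8 CPM by library totals. On that scale whole tissue miR-124-3p stood at 9.56, 6.17 and 5.12 CPM, all under both limits. Whole tissue miR-137-3p stood at 17.4, 13.0 and 13.4 CPM by library totals, of which 2 are under the limit of replicate 2. The order of the preparations is therefore not read from these libraries. The count ratio of epithelial cells to whole tissue was 0.302 for miR-137-3p (95% counting interval 0.0359 to 1.13) and 0.316 for miR-124-3p (0.00777 to 1.88). The fitted difference of miR-137-3p was −1.57 ± 0.58 (adjusted p = 0.036), dependent on the prior count, and its counting interval includes 1. That call was lost with edgeR (−1.69, adjusted p = 0.12) and without any of 5 libraries, namely epithelial cauda replicate 2 (−0.67, adjusted p = 0.43), whole tissue cauda replicate 1 (−1.45, adjusted p = 0.07), whole tissue cauda replicate 3 (−1.56, adjusted p = 0.058), whole tissue corpus replicate 2 (−1.54, adjusted p = 0.055) and epithelial corpus replicate 2 (−1.57, adjusted p = 0.051). Without epithelial cauda replicate 1 it was −2.60.

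The remaining members differed less between preparations. miR-218-5p in cauda stood at 167, 178 and 138 CPM in whole tissue and at 94.3 and 76.1 CPM in epithelial cells, without overlap. Its log2 difference was −0.88 ± 0.27 (adjusted p = 0.014), under 2-fold, and it was called without epithelial cauda replicate 1 (−1.03, adjusted p = 0.047) or with every miRNA of at least 1 count tested (−1.11, adjusted p = 0.0048). In caput and corpus its difference was 0.21 and −0.43, and for miR-128-3p the difference was 0.22, −0.06 and −0.12 in caput, corpus and cauda, with adjusted p from 0.27 to 0.92. For miR-128-3p in cauda it was 0.37 without epithelial cauda replicate 1.

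Whether a change between regions differed between the preparations was tested as an interaction over all 14 libraries, called at an adjusted p below 0.05 with no fold threshold. From caput to cauda 3 of 6 tested members were called, with 18% called among all tested. These were miR-132-3p and miR-218-5p, each with a lower change in epithelial cells, and miR-137-3p. No difference between preparations is read for miR-137-3p, which was tested through its whole tissue cauda counts alone and had no count in epithelial caput or corpus. From corpus to cauda 1 of 6 was called, miR-137-3p, with 8.77% among all tested (27 miRNAs, and 11 with library totals alone). From caput to corpus limma called 0 of 4, with 1.64% among all tested (5 miRNAs, and 2 with library totals alone), while 1 had an unadjusted p under 0.05 and edgeR called 0.

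The change of miR-132-3p from caput to cauda was lower in epithelial cells by a log2 difference of −2.35 ± 0.63 (adjusted p = 0.02). It kept its direction without each library and ranged from −2.997 without epithelial cauda replicate 1 to −1.73 without epithelial cauda replicate 2 (adjusted p = 0.069). The call was also lost without whole tissue caput replicate 3 (−1.91, adjusted p = 0.053), epithelial caput replicate 1 (−2.47, adjusted p = 0.05) or epithelial caput replicate 2 (−2.25, adjusted p = 0.056). For miR-218-5p the difference was −1.09 ± 0.36 (adjusted p = 0.047), and the call was lost without any of 10 of the 14 libraries, with values from −1.24 to −0.90 and adjusted p up to 0.16. It held without whole tissue caput replicate 1, whole tissue cauda replicate 3 or either epithelial corpus replicate. For miR-138-5p, called from caput to cauda in both preparations, the difference was 1.22 ± 0.75 (adjusted p = 0.28).

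For miR-137-3p the interaction was −3.59 ± 0.96 (adjusted p = 0.032) from corpus to cauda and −3.35 ± 0.91 (adjusted p = 0.02) from caput to cauda. Epithelial caput and corpus held no count of it, so both values depend on the prior count, and it was tested through its whole tissue cauda counts alone. With edgeR they were 1.06 and −0.29 and neither was called. Leaving out epithelial cauda replicate 1 gave −4.61 and −4.37, and leaving out epithelial cauda replicate 2 gave −2.56 (adjusted p = 0.1) and −2.28 (adjusted p = 0.086), with the call lost for both. The corpus to cauda call was also lost without either corpus replicate of either preparation or without whole tissue cauda replicate 3, with values from −3.77 to −3.38 and adjusted p up to 0.14. The caput to cauda call was also lost without epithelial caput replicate 1 (−3.47, adjusted p = 0.057) or 2 (−3.22, adjusted p = 0.064), and the value was −3.98 without whole tissue caput replicate 2. For miR-124-3p from caput to cauda the interaction was −1.87 ± 0.93 (adjusted p = 0.18) and 0.96 with edgeR. Epithelial caput held 0 counts of it and cauda 1, so both values depend on the prior count, and no difference or likeness between preparations is read from them.

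The patterns of the members across the 8 whole tissue libraries were compared with those of all 354 other miRNAs tested, by the root mean square difference of log2 CPM after centring each miRNA on its mean. The pattern most like that of miR-124-3p was miR-463-5p (0.30), followed by miR-143-3p (0.31) and miR-511-3p (0.34). In caput and corpus miR-124-3p held 0 to 2 counts a library and miR-137-3p 0 or 1, so their patterns there rest on the prior count. With prior counts of 0.5 and 5, chosen after the values were seen, the distance from miR-124-3p to miR-463-5p was 0.52 and 0.20, and with 5 the nearest was miR-511-3p. For miR-137-3p the closest were miR-196b-3p (0.31), miR-743a-5p (0.45) and miR-486a-3p (0.45), and for miR-138-5p they were miR-467a-5p (0.53), miR-135a-5p (0.57) and miR-467c-5p (0.57). Nearest to miR-132-3p were miR-451a (0.41), miR-471-3p (0.41) and miR-676-5p (0.42), and with a prior count of 5 miR-676-5p was nearest. miR-137-3p kept miR-196b-3p as its nearest with both prior counts, at 0.40 and 0.24. The flatter miR-128-3p was closest to miR-30c-5p, miR-125b-2-3p and miR-15b-5p (0.12 to 0.13), and miR-218-5p to miR-26b-5p (0.08), miR-101a-3p (0.14) and miR-199a-5p (0.15). Among the members themselves the closest pair was miR-128-3p and miR-218-5p (0.44), and miR-138-5p was at least 1.70 from every other member.

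Other miRNAs known from neurons or glia did not move as a group. Of a list of 32 such names, 26 were listed in whole tissue and 10 were tested from caput to cauda, with 4 called higher and 5 lower. With library totals alone 5 were higher and 4 lower, and the median of the 10 turned from −0.17 to 0.17. miR-9-5p, a regulator of neural progenitors, stood at 1353, 1546 and 1372 CPM in whole tissue caput, 146 and 59.7 CPM in corpus and 70.0, 80.03 and 79.0 CPM in cauda, without overlap between caput and the rest. It fell by 4.22 on the log2 scale from caput to cauda (SE 0.23, adjusted p = 1.1e-07). The other large changes among the listed names were those of its partner strand miR-9-3p (−4.83 ± 0.48, adjusted p = 7.7e-06), miR-598-3p (−3.01 ± 0.59, adjusted p = 0.001) and miR-149-5p (−2.29 ± 0.18, adjusted p = 1.2e-06), all lower in cauda. Of these, miR-9-3p and miR-598-3p passed the filter on low counts through caput alone, where they were high, with 9 and 5 counts in cauda. miR-598-3p was at −2.18 without cauda replicate 2 and under the count filter without caput replicate 3. In epithelial cells 23 of the 32 were listed and 6 tested, with 0 higher and 2 lower (1 by DESeq2). The 2 lower ones passed the filter on low counts through caput alone, where they were high. These were miR-9-5p (−4.48 ± 0.55, adjusted p = 0.00087) and miR-9-3p, which had 21 counts in caput and 0 in cauda and was at least 5.30-fold lower (adjusted p = 0.016). Of those 21 counts 17 were in caput replicate 1, without which the bound was 2.05-fold and miR-9-3p was under the count filter, and without caput replicate 2 the bound was 8.43-fold. Its call was lost without cauda replicate 1 (adjusted p = 0.082) or cauda replicate 2 (adjusted p = 0.095).

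A shorter list of neuronal markers holds miR-124-3p, miR-9-5p, miR-129-5p, miR-153-3p and miR-219a-5p. Of these miR-219a-5p is a marker of glia, and miR-124-3p is itself a member. Its summed level was 1423, 1617 and 1431 CPM in whole tissue caput, 229 and 150 CPM in corpus and 113, 113 and 116 CPM in cauda. miR-9-5p was the most abundant in every whole tissue library but corpus replicate 2, where miR-153-3p stood at 87.9 CPM, while miR-129-5p and miR-219a-5p stayed at or under 4.13 and 1.31 CPM in whole tissue. From caput to cauda miR-124-3p was called higher and miR-9-5p and miR-153-3p lower, so the 3 tested markers did not move together, and the call of miR-153-3p (−1.18) was lost with library totals alone (−0.83). In epithelial cells the sum was 691 and 470 CPM in caput, 48.7 and 81.7 CPM in corpus and 59.6 and 52.5 CPM in cauda, with miR-124-3p at 0 in 5 of 6 libraries, miR-129-5p at 4.78 to 25.8 CPM, and miR-153-3p above miR-9-5p in corpus replicate 2 and cauda replicate 2. The part of nerve fibres in the levels of the 7 members was not tested.

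Markers of other cell types moved along the duct with miR-124-3p, miR-137-3p and miR-132-3p in whole tissue. The smooth muscle markers, 4 of 4 higher from caput to cauda, summed to 65980, 57530 and 53230 CPM in caput, 80350 and 76250 CPM in corpus, and 245700, 223200 and 249100 CPM in cauda, with miR-143-3p the most abundant. Red blood cell markers, also 4 of 4 higher, summed to 97.8, 95.5 and 87.3 CPM in caput, 276 and 238 CPM in corpus, and 846, 1246 and 1324 CPM in cauda, with miR-486a-5p the most abundant. Germ cell and sperm markers, 9 of 11 higher, summed to 4255, 5359 and 4810 CPM in caput, 4886 and 5716 CPM in corpus, and 13080, 9951 and 11520 CPM in cauda, with miR-34c-5p the most abundant. No marker of these 3 lists was at 0 in any whole tissue library. Their part in the cauda levels of the members was not tested.

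Of the leukocyte markers 3 of 5 were higher in cauda, and 5 of 5 with library totals alone, with sums of 966, 1066 and 1160 CPM in caput, 1160 and 1450 CPM in corpus, and 1948, 1982 and 1993 CPM in cauda, mostly miR-142a-5p and with miR-155-5p at 0 in caput replicate 2. Fibroblast markers were higher for 2 of 5, miR-199a-3p and miR-199b-3p, which have the same values. The 5 markers summed to 2212, 1942 and 2039 CPM in caput, 3483 and 3633 CPM in corpus, and 3422, 4008 and 3594 CPM in cauda, mostly miR-199a-5p. Of the endothelial markers limma called 0 of 2, at sums of 13950 to 18250 CPM over the 8 libraries, with 1 at an unadjusted p under 0.05 and 0 by edgeR or DESeq2. Epithelial markers moved with miR-138-5p, 5 of 6 lower from caput to cauda, and 1 of 6 with library totals alone. Their sum was 22390, 23680 and 21880 CPM in caput, 18220 and 17400 CPM in corpus, and 9893, 8185 and 8992 CPM in cauda, with miR-200a-3p the most abundant. The part of these cells in the fall of miR-138-5p was not tested.

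In the epithelial preparation the epithelial markers summed to 28510 and 26040 CPM in caput, 38700 and 40510 CPM in corpus, and 33640 and 41130 CPM in cauda, while miR-138-5p fell from caput to cauda. Of these markers limma, edgeR and DESeq2 each called 0 of 6 from caput to cauda, with 4 at an unadjusted p under 0.05. Those 4 also had an adjusted p below 0.05 at under 2-fold, 2 of them higher and 2 lower in cauda, and with library totals alone 2 of 6 were called higher. Smooth muscle markers there were at 144500 and 195700 CPM in caput, 212200 and 210000 CPM in corpus, and 336800 and 158200 CPM in cauda, with 0 of 3 called by limma, edgeR or DESeq2 and 0 at an unadjusted p under 0.05. Red blood cell markers, 3 of 3 tested higher from caput to cauda, summed to 473 and 382 CPM in caput, 207 and 434 CPM in corpus, and 2966 and 1588 CPM in cauda. Fibroblast markers were higher for 2 of 4 tested, miR-199a-3p and miR-199b-3p, which have the same values. Germ cell markers were higher for 4 of 8 tested, leukocyte markers for 2 of 2 and endothelial markers for 0 of 2 (limma, with 2 at an unadjusted p under 0.05 and 0 by edgeR or DESeq2). These are levels of miRNAs and not counts of cells, and their part in the epithelial values of the members was not tested.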

How the data were processed

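Small RNA libraries were sequenced from whole tissue and from epithelial cells of the caput, corpus and cauda. The deposited tables hold expected counts per mature miRNA, which the authors made, per their processing notes, with CASAVA 1.8.2, alignment with Bowtie 1.1.1 to the genome and to miRBase mature miRNAs, and tests with limma. The constant of 0.001 that every epithelial value carries was removed, and values were rounded, which changed no library total by more than 0.00337%. Total counts ran from 89039 to 2135501, and 0 columns were left unmapped.

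Counts were fitted with limma 3.58.1 (voom) and TMM factors from edgeR 4.0.16 in R 4.3.3. Each preparation had 1 fit of its 3 regions, and a joint fit of 14 libraries over the 578 names listed in both tables gave the comparisons of preparations and the interaction. Tested were miRNAs with a mean count above 10 in a group compared, with Benjamini-Hochberg adjustment over all of them. Alternatives were edgeR's quasi-likelihood test, DESeq2 1.42.0 (not for the joint fit), its size factors, library totals alone, other filters on low counts, only the regions compared, a replicate block and each library left out. The fit was tested on simulated data, where it missed some changes in the interaction and made more false calls there than between regions. Ratios of low counts have exact 95% intervals, limits rest on 3 counts in a library or, where stated, over a region, and the lower bound of a fold rests on 3 counts over a region.

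Named are the 7 members, the other strands of their hairpins, the 3 miRNAs most alike in pattern to each (prior count 2) and up to 4 other neural miRNAs per preparation with the largest called change from caput to cauda. The members, the lists of markers and the rules were chosen with earlier results of these data known. Sequences and hairpin positions came from RefSeq and host genes from GENCODE M21, read with Python 3.11.15 and pandas 2.3.3. Whole tissue has 3, 2 and 3 libraries per region and epithelial cells have 2, each from pooled mice.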

Additional observations from a re-analysis of the deposited data

Results flagged for a closer look

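For 3 members the interaction test of whether a change between regions differs between whole tissue and epithelial cells passed its threshold, and each call was lost under some alternative. On simulated data this test made more false calls than the comparisons between regions. For miR-132-3p from caput to cauda the log2 difference, epithelial cells minus whole tissue, was −2.35 (SE 0.63, adjusted p = 0.02), and the call was lost without any of 4 of the 14 libraries. For miR-218-5p from caput to cauda it was −1.09 (SE 0.36, adjusted p = 0.047), lost without any of 10 libraries. For miR-137-3p the value was −3.59 (SE 0.96, adjusted p = 0.032) from corpus to cauda, lost without any of 6 libraries, and −3.35 (SE 0.91, adjusted p = 0.02) from caput to cauda, lost without any of 3. With edgeR these were 1.06 and −0.29. Epithelial caput and corpus held 0 counts of miR-137-3p, so its values depend on the prior count and on depth, and no difference between preparations is read from them.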

How the results depend on the processing

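Over 708 recalculated values of 45 member changes, 641 kept their direction and their side of the thresholds, 37 lost a call, 10 gained one and 20 changed sign. Of 215 recalculated counts, 183 stayed within 1.5 times the reported count. Depth limits the epithelial corpus most, where 3 counts correspond to 23.6 and 33.7 CPM. With a single library left in a group, that library is assumed to vary like the others. Except where fewer miRNAs or libraries were used, the cause was not tested.

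Library totals alone shifted the median log2 fold change of all miRNAs by 0.33 from caput to corpus and 0.35 from caput to cauda in whole tissue, and by 0.16 and 0.18 in epithelial cells, and DESeq2 size factors shifted the epithelial caput to corpus median by 0.10. The share of called miRNAs that were higher moved with totals from 47% to 68.5% and from 52.4% to 63.9% in whole tissue (caput to corpus, caput to cauda), from 52% to 66.7% and from 53.6% to 67.2% in epithelial cells, and to 64.3% with DESeq2 factors from epithelial caput to corpus. For interactions it moved from 80% to 100% (caput to corpus, with 2 called), from 74.1% to 63.6% (corpus to cauda) and from 69% to 52.1% (caput to cauda).

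With totals alone 2 members were called from whole tissue caput to corpus, and miR-128-3p from caput to cauda was 0.29, against 0.031 with DESeq2 and 0.035 with its size factors. With at least 10 counts required in every library, 1 member was called from whole tissue corpus to cauda, 1 from caput to cauda and 0 from epithelial caput to cauda, where fewer miRNAs were tested, and miR-218-5p from epithelial caput to corpus was −0.029. With edgeR 1 member was called from epithelial caput to corpus, where miR-218-5p was −0.032, 2 between preparations in corpus and 1 in cauda, and 0 for the corpus to cauda interaction, where miR-137-3p was 1.06. With every miRNA of at least 1 count, 1 was called from epithelial caput to corpus, where miR-218-5p was −0.13, 4 between preparations in caput and 4 in corpus. With only miRNAs identified in both preparations, 1 was called between preparations in cauda and 0 for the corpus to cauda interaction. With only the regions compared, miR-132-3p from epithelial corpus to cauda was −0.0056.

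Left-out libraries gave 1 to 2 members called from whole tissue caput to corpus, 1 to 3 from corpus to cauda, 0 to 1 between preparations in corpus, 1 to 2 in cauda, 0 to 1 for the corpus to cauda interaction and 0 to 3 for caput to cauda. Log2 changes that turned sign ranged, in whole tissue, from −0.026 to 0.15 (miR-218-5p, corpus to cauda) and −0.072 to 0.11 (miR-128-3p, caput to cauda). In epithelial cells they ranged from −0.017 to 0.084 (miR-218-5p, caput to corpus), −0.28 to 0.77 (miR-128-3p, corpus to cauda), −0.54 to 0.56 (miR-132-3p, corpus to cauda), −0.87 to 0.20 (miR-128-3p, caput to cauda) and −1.03 to 0.043 (miR-132-3p, caput to cauda). Between preparations in cauda miR-128-3p ranged from −0.67 to 0.37.

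With the replicate block 1 member was called from epithelial caput to corpus, miR-138-5p (−1.67, adjusted p = 0.039). Samples share only a replicate number. After removing region means, whole tissue libraries of the same number had correlations of −0.01, −0.06, 0.16, 0.11, 0.07, 0.22 and 0.10, and epithelial ones 0.20 (caput and corpus), −0.18 (caput and cauda) and −0.14 (corpus and cauda). In whole tissue caput replicate 3 correlated best with cauda replicate 2. The nearest miRNA in pattern was kept by 6 of 6 members with a prior count of 0.5 and by 3 with 5, both chosen after the values were seen. For the uncalled miR-124-3p interaction from caput to cauda edgeR gave 0.96.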
